A study of Mus musculus with 12 samples.

Results

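Il6, Lif and Osm encode the 3 interleukin-6 (IL-6) family cytokines examined here, out of 754 mouse genes counted on a NanoString panel of myeloid innate immunity transcripts. They were taken by their probe names, with 1 probe per gene, as a family chosen with earlier results of these data known, although the rule itself used no measured value. The counts came from bone marrow-derived mast cells (BMMCs), which are mast cells grown from mouse marrow in IL-3 for at least 4 weeks, from 3 mice aged 6 to 8 weeks on a C57BL/6 background. The libraries of a replicate number were taken to come from 1 mouse, whose cells were split over 4 electroporations. The si12A+C cells received siRNAs against both Zc3h12a and Zc3h12c. The si12A cells received siRNAs against Zc3h12a, which encodes Regnase-1, and the si12C cells siRNAs against Zc3h12c, which encodes Regnase-3. The siGLO cells received siGLO Green, a transfection indicator that the study used as its control. All 12 samples, 3 per group, were stimulated for 2 h with complexes of IgE and its antigen 48 h after electroporation, so no resting cells were measured and every level below is that of activated cells. The knockdown is transient and carries no deleted allele. No probe for Zc3h12a or Zc3h12c was analysed here, so the depletion itself could not be checked in these counts.

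IL-6 family cytokines share the receptor subunit gp130, which starts JAK kinases and the transcription factor STAT3 and is braked by SOCS3. IL-6 is a classic product of IgE-activated mast cells, leukemia inhibitory factor (LIF) keeps embryonic stem cells undifferentiated, and oncostatin M (OSM) acts on fibroblasts, endothelium and hepatocytes. Regnase-1 is an endoribonuclease that cuts stem loops in the 3' ends of cytokine mRNAs, with Il6 among its known targets, and Regnase-3 is its relative.

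The cocktails held 4 siRNAs per target, which are shown because they set the groups apart. They are given 5' to 3' in the letters in which the study lists them, for Zc3h12a on chromosome 4 and Zc3h12c on chromosome 9.
Zc3h12a siRNA 1: gcagagatcctgtcttaca
Zc3h12a siRNA 2: gagcgaggccacacagata
Zc3h12a siRNA 3: gaaatgtacgtatggaatc
Zc3h12a siRNA 4: gaaagggctggtgtatata
Zc3h12c siRNA 1: gcccaagtctggataattt
Zc3h12c siRNA 2: gcacttaagttaggttatt
Zc3h12c siRNA 3: gcactacacctttaagcaa
Zc3h12c siRNA 4: ggatattattccatgttga

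In RefSeq's annotation of GRCm38.p6, Il6 lies on chromosome 5 (chr5:30013114-30019975), whereas Osm (chr11:4236785-4241026) and Lif (chr11:4257568-4272514) are close neighbours on chromosome 11, 16541 bases apart. The 250 bases before the start of Il6 and of Lif are shown because the counts of these genes varied in different ways, as described below. A link between these bases and the counts was not tested. Both are from RefSeq on the plus strand of GRCm38.p6, 5' to 3', chr5:30012864-30013113 for Il6 and chr11:4257318-4257567 for Lif. Osm is named only. Capitals mark matches, on either strand and without overlap here, to the AP-1 motif TGANTCA, the C/EBP motif TTNNGNAA, the cAMP response element core TGACG, the STAT motif TTCNNNGAA or the NF-kB consensus.
Il6 upstream: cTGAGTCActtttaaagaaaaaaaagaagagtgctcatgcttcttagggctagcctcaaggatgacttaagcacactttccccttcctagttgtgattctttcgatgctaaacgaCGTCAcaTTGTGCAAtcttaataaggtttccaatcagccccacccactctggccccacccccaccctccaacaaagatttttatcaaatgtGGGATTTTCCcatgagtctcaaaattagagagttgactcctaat
Lif upstream: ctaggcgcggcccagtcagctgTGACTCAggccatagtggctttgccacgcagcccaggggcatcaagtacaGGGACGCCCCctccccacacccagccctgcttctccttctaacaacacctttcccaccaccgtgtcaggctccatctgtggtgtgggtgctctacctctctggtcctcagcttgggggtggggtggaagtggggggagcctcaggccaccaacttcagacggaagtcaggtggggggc

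The Il6 window held 1 match each to the AP-1, C/EBP, cAMP response element and NF-kB letters, and the Lif window held 1 each to AP-1 and NF-kB. Neither held the STAT letters. Of 32851 listed windows of this length, 6.75% held the AP-1 motif, 36.8% C/EBP, 17.8% the cAMP response element core, 7.02% STAT and 7.25% NF-kB. Such a match is a run of letters and not a measured binding site.

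Libraries held 447310 to 819974 counts, and a probe counted as detected above the mean plus 2 SD of its library's 8 negative controls, a limit of 15.3 to 25.9 counts. Il6, Lif and Osm stood far above it in all 12 libraries, at 619 to 1640, 115 to 395 and 107 to 357 times the limit. The cells carried the mRNAs of mast cells, with all 8 listed markers detected and summed scaled counts of 131198 to 210235. By comparison 10 macrophage and monocyte markers summed to 222 to 401, 5 eosinophil markers to 126 to 294 and 8 neutrophil markers to 64.4 to 113. The 5 lymphocyte markers summed to 50.4 to 95.4 and 4 dendritic cell markers to 28.0 to 57.0. Csf1r, the receptor that defines macrophages, and Ly6g, S100a8 and S100a9 of neutrophils were not above background in any library. Other markers of these lists were, with Cd68 and Cx3cr1 above background in 12 of 12 libraries, Adgre1 in 10 and Mrc1 in 9. Of the neutrophil list, Camp and Mpo were above it in 3 libraries and Csf3r in 1. Counts below are scaled by TMM, a factor that evens out library size, unless they are called raw.

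The mouse of origin was the main source of variation of Lif and Osm mRNA. Lif gave 3823, 3615, 3518 and 3161 scaled counts in si12A+C, si12A, si12C and siGLO cells of mouse 1. In mouse 2 the same groups gave 7895, 9754, 10029.9 and 9079.8. In mouse 3 they gave 1873, 2705, 2284 and 3091. Every library of mouse 2 was thus above every library of the other mice, whatever siRNA it had received, and only mice 1 and 3 came close to each other, in siGLO cells.

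Osm followed the same order. Its scaled counts in si12A+C, si12A, si12C and siGLO cells were 2962, 2818, 3293 and 3159 in mouse 1. They were 9042, 8814, 10571 and 9855 in mouse 2. They were 1562, 1721, 2319 and 2452 in mouse 3. The ranges of the 3 mice did not overlap for Osm, nor did they for Lif, with mouse 2 the highest and mouse 3 the lowest for both. The share of the 496 tested probes whose mouse ranges lay apart was not worked out, so nothing was read from this.

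Il6 was far more even. It gave 22623, 21399.9, 19438 and 19421 scaled counts in si12A+C, si12A, si12C and siGLO cells of mouse 1. It gave 32950, 31062, 23812 and 19543 in mouse 2. It gave 23658, 21160.3, 20273 and 21553 in mouse 3. The siGLO cells of the 3 mice lay close together, and the 2 values that stood apart were those of si12A+C and si12A cells of mouse 2.

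**Figure D1:**
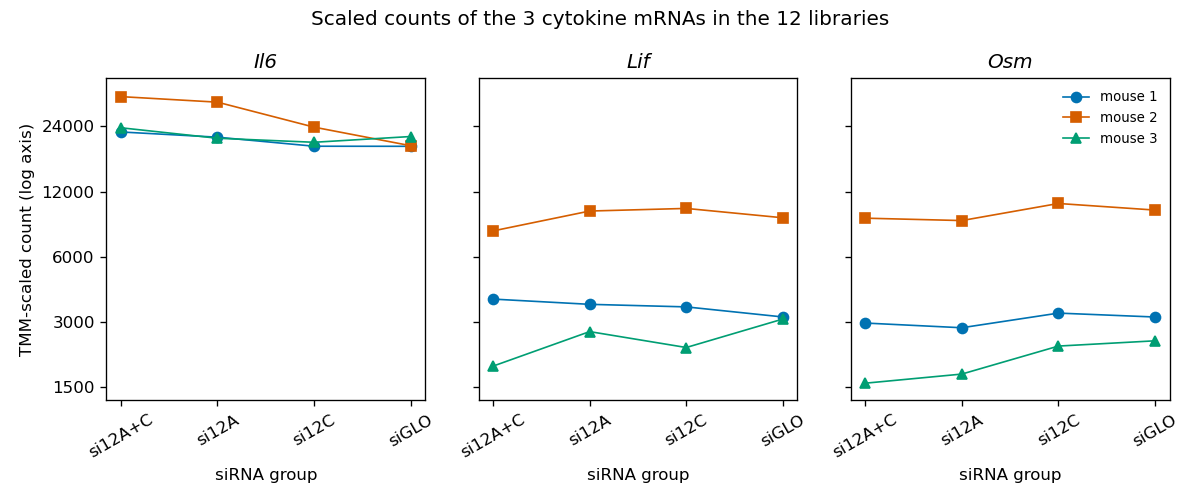
TMM-scaled counts of Il6, Lif and Osm (log axis) in each of the 12 libraries, with the siRNA groups on the x axis and 1 line per mouse. Lif and Osm separate mouse 2 (7895 to 10571) from mice 1 and 3 in all groups, whereas the Il6 lines meet in siGLO cells (19421 to 21553) and part in si12A+C and si12A cells of mouse 2.

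Across the 12 libraries, mouse took up 96.7% of the sum of squares of log2 Osm, 95.0% of that of Lif and 38.6% of that of Il6, against a median of 48.8% over the 496 probes tested. The siRNA group took up 2.34% for Osm, 1.38% for Lif and 37.6% for Il6, against a median of 20.7%. In edgeR's quasi-likelihood test with the mouse as a block, the 3 mice differed in Osm (adjusted p = 2.45e-09, the 2nd smallest p of 496), Lif (adjusted p = 1.43e-07, the 13th) and Il6 (adjusted p = 0.0193, the 238th). Differences between these cultures were common, since 286 of 496 probes (57.7%) passed an adjusted p of 0.05, and the Il6 rank lies within that bulk. The Il6 call was lost without mouse 2 (adjusted p = 0.549), without its si12A library (0.0978) or its si12A+C library (0.109), and with total counts, positive controls or the well-detected reference genes as the scale.

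Osm was 3.13-fold higher in mouse 2 than in mouse 1 (95% confidence interval 2.71 to 3.61) and 4.81-fold higher than in mouse 3 (4.15 to 5.58). Lif was 2.58-fold (2.13 to 3.13) and 3.72-fold (3.05 to 4.52) higher in mouse 2 than in mice 1 and 3. Il6 was 1.28-fold (1.10 to 1.49) and 1.22-fold (1.05 to 1.42) higher in the same comparisons. Between mouse 3 and mouse 1, Osm fell by 0.62 and Lif by 0.52 on the log2 scale in mouse 3 (edgeR with the block, adjusted p = 0.00138 and 0.0230), while the Il6 difference of 0.07 did not pass (adjusted p = 0.742). These intervals rest on the 4 libraries of each mouse, which were taken to share 1 animal, so an animal cannot be told apart from its culture. Other mast cell cytokines were highest in mouse 2 too, among them Tnf, with a mean of 15119 scaled counts against 5470 and 4876 in mice 1 and 3. Csf2 was at 14777 against 4564 and 3440, Il3 at 6737 against 1844 and 1072, and Il4 at 3144 against 1102 and 976. Il1b, Vegfa, Il5 and Il10 were not highest there, with Il1b at 225 against 171 and 276. The summed mast cell markers were also highest in mouse 2, at 183059 to 210235, against 131198 to 174676 in mouse 1 and 154440 to 169447 in mouse 3. Cpa3 held much of that difference, at a mean of 114167 scaled counts in mouse 2 against 77948 and 80440 in mice 1 and 3, and Fcer1a was also highest there. Kit, Hdc, Gata2 and Cma1 were lowest in mouse 2, with Kit at 445 against 801 and 679 and Hdc at 2169 against 2862 and 2739. Ms4a2 and Tpsb2 lay in between. In edgeR's test over the 3 mice with the block, Fcer1a, Gata2 and Cma1 did not pass (adjusted p = 0.124, 0.331 and 0.486). The other listed mast cell markers did, with adjusted p = 0.00016 for Kit, 0.00959 for Hdc and 0.000876 for Cpa3 in that test. The 5 eosinophil markers summed lowest in mouse 2, at 126 to 159, against 197 to 294 in mouse 1 and 189 to 199.96 in mouse 3. Among the 10 macrophage and monocyte markers, which summed to 240.1 to 401 in mouse 2, against 230.1 to 283 in mouse 1 and 222 to 327 in mouse 3, Adgre1, encoding F4/80, was higher in mouse 2 by 1.32 ± 0.20 than in mouse 1 and by 1.37 ± 0.20 than in mouse 3 on the log2 scale (edgeR with the block, adjusted p = 0.000171 and 9.12e-05). Cd68, a marker of macrophages detected in 12 of 12 libraries, went the other way, at 51.2 ± 8.9 scaled counts in mouse 2, against 68.3 ± 11.0 in mouse 1 and 72.1 ± 14.1 in mouse 3 (SD over 4 libraries, adjusted p = 0.0369 over the 3 mice), Cx3cr1 and Mrc1 did not pass (adjusted p = 0.127 and 0.173), and Csf1r was at background in all 3. Their part in the Lif and Osm levels was not tested. More or fewer cells that make a transcript and more or less transcript per cell cannot be told apart in such bulk RNA.

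**Figure D2:**
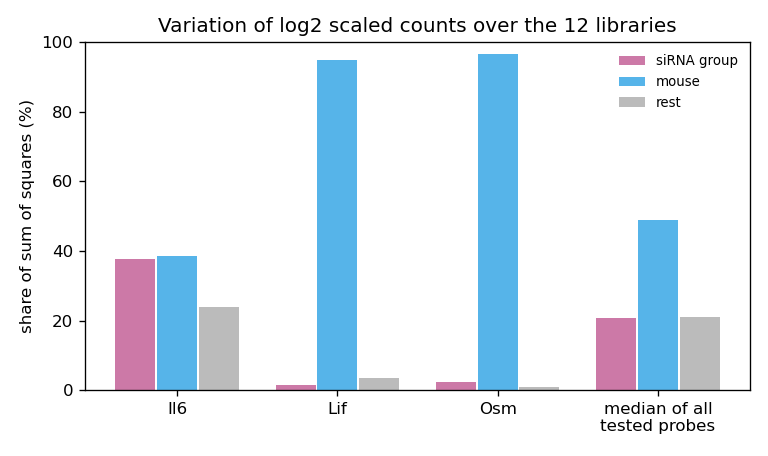
Share of the sum of squares of log2 scaled counts over 12 libraries that falls to siRNA group, mouse and the rest, in percent, for each cytokine and as the median of each share over the 496 probes tested. Mouse holds 95.0% for Lif and 96.7% for Osm, whereas group (37.6%) and mouse (38.6%) hold nearly equal shares for Il6.

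The question of the design is which transcripts rise when Regnase-1, Regnase-3 or both are depleted. Il6, Lif and Osm were called in none of the 7 comparisons, where a call asks for an adjusted p no larger than 0.05 and a log2 fold change past 0.5 in either direction. Without a term for the mouse, edgeR called 0 of 496 probes in every comparison (0%), and the smallest adjusted p of the 3 cytokines was 0.680. At an unadjusted p under 0.05 this fit held 33 probes in si12A+C against siGLO, 38 in si12A against siGLO, 2 in si12C against siGLO, 14 in si12A+C against si12A, 15 in si12A+C against si12C, 28 in si12A against si12C and 8 in the test of additivity, with neither Il6, Lif nor Osm among them. In the same order DESeq2 without that term called 3, 1, 0, 0, 1, 1 and 0 probes and limma called none, again without the 3 cytokines. With the mouse as a block, edgeR called 30 probes (6.05%) in si12A+C against siGLO, 27 (5.44%) in si12A against siGLO, 2 (0.403%) in si12C against siGLO, 15 (3.02%) in si12A+C against si12C and 24 (4.84%) in si12A against si12C, and 0 (0%) in si12A+C against si12A and in the test of additivity, where 70 and 40 probes had an unadjusted p under 0.05, DESeq2 called 3 and 0, and limma called 0 and 0. The cytokines were not called there either, and all fold changes that follow are from the fit with the block, which compares siRNAs within mice.

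Il6 was 1.28-fold higher in si12A+C than in siGLO cells (95% confidence interval 1.08 to 1.53), a log2 fold change of 0.36 ± 0.12 (SE) that missed the threshold (unadjusted p = 0.00936 and adjusted p = 0.0938, edgeR). It ranked 52nd of 496 probes by fold change. The 3 mice gave log2 differences of 0.22, 0.75 and 0.13, so with TMM the direction was shared and the size was largest in mouse 2. Mouse 3 turned to -0.24 with the positive controls and to -0.14 with all reference genes as the scale, so that 2 of 3 mice were then higher. Without the block it was 0.39 ± 0.19 (adjusted p = 0.805). Without mouse 2 the fold change was 0.19 (adjusted p = 0.204), and without mouse 1 it was 0.48 (adjusted p = 0.0134), still under the fold limit. The si12A cells gave 0.25 ± 0.12 against siGLO (adjusted p = 0.169), with 0.14, 0.67 and -0.03 in mice 1, 2 and 3. The si12C cells gave 0.05 ± 0.12 (adjusted p = 0.976), an interval of 0.870-fold to 1.24-fold.

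The size of the Il6 difference depended on what the counts were scaled to. Against the 10 reference genes with a mean of at least 100 counts, Il6 was called in si12A+C against siGLO (0.63, adjusted p = 0.0133), in si12A against siGLO (0.51, adjusted p = 0.0279) and in si12A+C against si12C (0.59, adjusted p = 0.0215). That scale also moved the median of all 496 probes to 0.28, 0.26 and 0.29, and the 63 (12.7%), 95 (19.2%) and 59 (11.9%) probes called there held 57, 89 and 57 higher ones, against 17 of 30, 9 of 27 and 6 of 15 with TMM. Relative to that median the Il6 changes were 0.35, 0.24 and 0.30. Against the spiked-in positive controls Il6 was at -0.15 in si12A against siGLO cells (adjusted p = 0.559), where the median of all probes was -0.38.

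Osm differed in the other direction where Zc3h12a siRNA was present, also without a call. It was 0.820-fold in si12A+C relative to siGLO cells (0.696 to 0.966), a log2 fold change of -0.29 ± 0.11 (unadjusted p = 0.0213, adjusted p = 0.143, edgeR), and 0.823-fold in si12A relative to siGLO cells (0.699 to 0.969), at -0.28 ± 0.11 (adjusted p = 0.113). With TMM each mouse showed this direction, with -0.09, -0.12 and -0.65 in mice 1, 2 and 3 for si12A+C and -0.16, -0.16 and -0.51 for si12A. The si12C cells gave 0.02 ± 0.11 (adjusted p = 0.988), with 1 mouse lower and 2 higher. Against si12C cells, Osm was at -0.31 ± 0.11 both in si12A+C (adjusted p = 0.139) and in si12A cells (adjusted p = 0.0956), again lower in 3 of 3 mice with TMM. Mouse 3 carried much of the si12A+C value, which was -0.10 without it (adjusted p = 0.749).

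The scale mattered for Osm too. Against the positive controls Osm was called lower in si12A than in siGLO cells (-0.68, adjusted p = 0.0229) and than in si12C cells (-0.63, adjusted p = 0.0473), where the medians of all probes were at -0.38 and -0.31. The 95 (19.2%) and 52 (10.5%) probes called under that scale were all lower, and none was higher. Against the well-detected reference genes its differences from siGLO shrank to -0.01 in si12A+C and -0.02 in si12A cells, with medians of 0.28 and 0.26. The direction within mice turned too, since Osm in si12A+C against siGLO was at 0.17 in mouse 1 with the positive controls, at 0.62 in mouse 1 with all reference genes, and at 0.20 and 0.23 in mice 1 and 2 with the well-detected reference genes, while mouse 3 stayed below 0 under each. In si12A against siGLO, 3 of 3 mice were lower with the positive controls, and 2 of 3 with either set of reference genes.

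The markers of macrophages and monocytes, another source of Osm, did not share 1 direction in si12A+C against siGLO cells, whereas the tested ones were all lower in si12A cells. Their 10 probes summed to 241 to 314 scaled counts in si12A+C, 222 to 240.1 in si12A, 238 to 340.5 in si12C and 283 to 401 in siGLO cells, and 4 of them were tested, with a median log2 fold change of 0.00897 in si12A+C and -0.60 in si12A against siGLO. Cx3cr1, a chemokine receptor, was the only 1 called, lower in si12A+C (-1.06 ± 0.19, adjusted p = 0.00449, edgeR with the block) and in si12A (-0.85 ± 0.18, adjusted p = 0.0180) against siGLO. Over all 496 probes, 6.05% and 5.44% were called in these comparisons, and nothing was read from the count of markers called. Adgre1 and Cd68 were at 0.21 ± 0.23 and 0.10 ± 0.18 in si12A+C against siGLO (adjusted p = 0.718 and 0.794), and Cd14 and Cd163, near background, averaged 18.0 and 15.5 scaled counts in si12A+C, against 12.8 and 8.7 in siGLO cells. Csf1r, Ccr2, Marco and Mertk were at background throughout. Their part in the Osm difference was not tested.

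Lif had no shared direction. Its log2 fold change was -0.21 ± 0.15 in si12A+C (adjusted p = 0.467), 0.02 ± 0.15 in si12A (adjusted p = 0.946) and -0.06 ± 0.15 in si12C cells (adjusted p = 0.988), each against siGLO. The mice split in si12A+C cells, with 0.27, -0.20 and -0.72 in mice 1, 2 and 3. The intervals of 0.691-fold to 1.07-fold, 0.815-fold to 1.26-fold and 0.772-fold to 1.20-fold do not show that Lif was alike in these groups. Without mouse 1 the si12A+C value was -0.42 (adjusted p = 0.0548), and without mouse 3 it was 0.05 (adjusted p = 0.909).

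**Figure D3:**
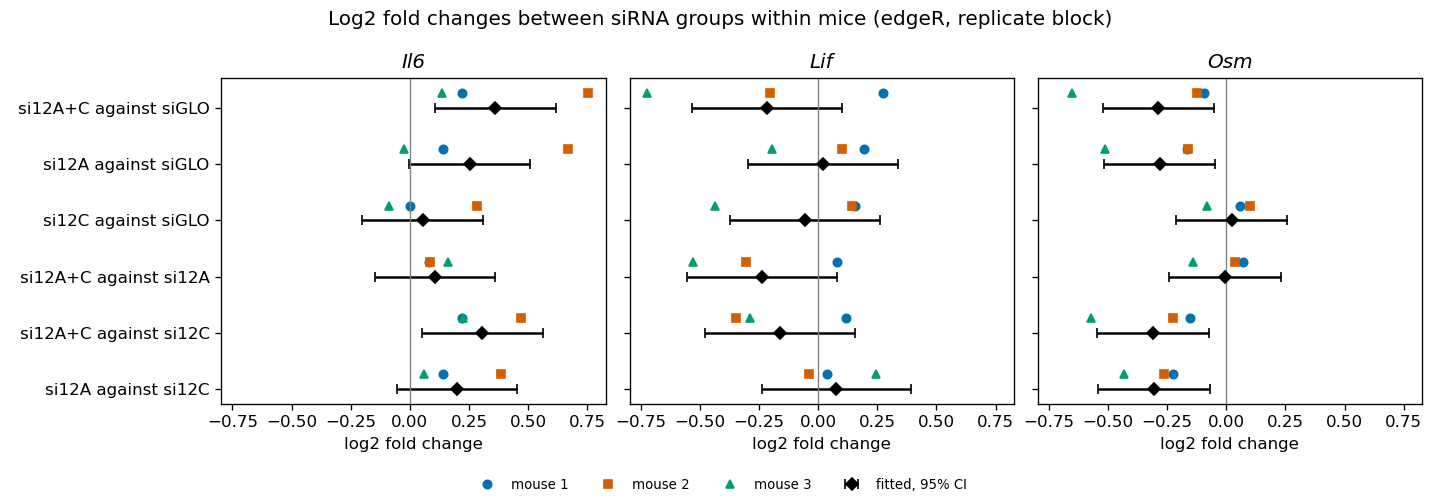
Log2 fold changes of Il6, Lif and Osm in the 6 pairwise siRNA comparisons. Diamonds and bars are the edgeR estimate with the mouse as a block and its 95% confidence interval, and coloured points are the differences of TMM-scaled counts within each mouse. Il6 points lie right of 0 in 3 of 3 mice for si12A+C against siGLO on the TMM scale, Osm points lie left of 0 in 3 of 3 mice, on this scale, in the 4 comparisons of a group with Zc3h12a siRNA against one without, and Lif points fall on both sides.

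Adding Zc3h12c siRNA to Zc3h12a siRNA changed none of the 3 beyond the threshold. Il6 in si12A+C against si12A cells was at 0.11 ± 0.12 (adjusted p = 0.718), although 0.08, 0.09 and 0.16 in mice 1, 2 and 3 shared a direction. Lif was at -0.24 ± 0.15 (adjusted p = 0.512) and Osm at -0.00439 ± 0.109 (adjusted p = 0.996). Against si12C cells, Il6 was higher in 3 of 3 mice in si12A+C cells (0.31 ± 0.12, adjusted p = 0.176) and in si12A cells (0.20 ± 0.12, adjusted p = 0.298), neither past the threshold. The difference of si12A+C from the sum of the single knockdowns was 0.05 ± 0.17 for Il6, -0.18 ± 0.21 for Lif and -0.03 ± 0.15 for Osm (adjusted p = 0.939, 0.831 and 0.948, edgeR).

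A ratio of raw counts within 1 library needs no scaling, and it was added after the data had been seen. Its size also carries the unequal capture of the 2 probes, so only its differences between libraries are read. The raw Osm count per raw Il6 count was 0.131, 0.274 and 0.0660 in si12A+C cells of mice 1, 2 and 3, 0.132, 0.284 and 0.0813 in si12A cells, 0.169, 0.444 and 0.114 in si12C cells, and 0.163, 0.504 and 0.114 in siGLO cells. Within each mouse both groups with Zc3h12a siRNA thus lay below both groups without it. The ratio differed from siGLO by -0.66 ± 0.30 on the log2 scale in si12A+C cells (SD over 3 mice, with -0.31, -0.88 and -0.79) and by -0.54 ± 0.27 in si12A cells (-0.30, -0.83 and -0.48). In si12C cells the difference was -0.04 ± 0.13, with both signs among the mice. The exact two-sided sign-flip permutation test over 3 mice gave p = 0.25 for si12A+C and for si12A, the smallest it can give with n = 3, and p = 1 for si12C.

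The raw Lif count per raw Il6 count was less uniform. Against siGLO it differed by 0.05, -0.96 and -0.86 in si12A+C cells of mice 1, 2 and 3, a mean of -0.59 ± 0.56 (SD, exact permutation p = 0.5, n = 3), and mouse 1 did not share the direction of the others. Lif per Osm was 0.31 ± 0.05 higher on the log2 scale in si12A than in siGLO cells (0.36, 0.26 and 0.32, exact permutation p = 0.25, n = 3), a spread far smaller than the difference, but only 0.07 ± 0.26 in si12A+C cells. Subtracting the mean of the negative controls first moved none of these means by as much as 0.01.

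**Figure D4:**
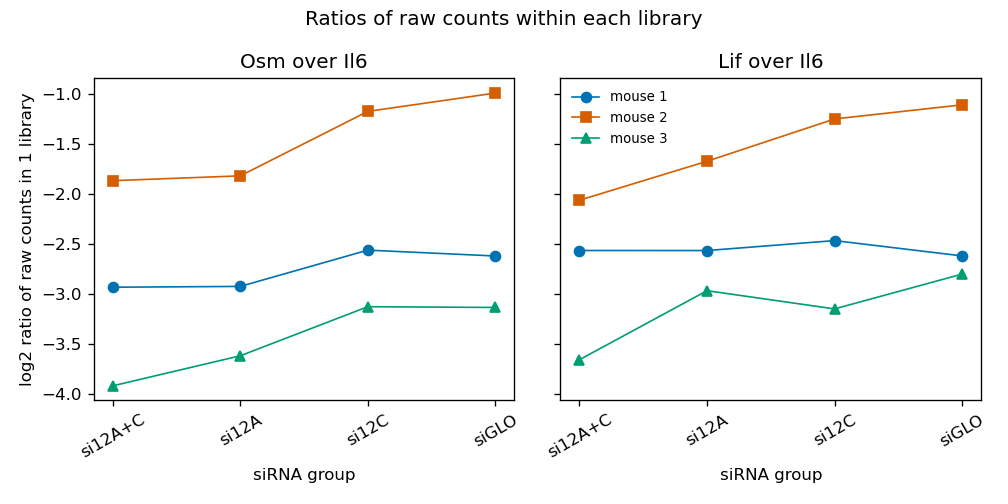
Log2 ratios of raw counts within each library, Osm over Il6 on the left and Lif over Il6 on the right, by siRNA group and with 1 line per mouse. In each mouse Osm over Il6 is lower in si12A+C and si12A than in si12C and siGLO cells, by 0.31 to 0.88 for si12A+C against siGLO, whereas Lif over Il6 does so in mouse 2 and is nearly level in mouse 1.

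The deposited log2 table, in which nearly all of the difference between mice was gone, had narrower spreads. In it Il6 was at 15.36, 15.37 and 15.23 in si12A+C, 15.21, 15.28 and 15.17 in si12A, 15.01, 15.02 and 15.04 in si12C and 15.00, 14.88 and 15.11 in siGLO cells. Osm was at 12.54, 12.48 and 12.32 in si12A+C, 12.40, 12.46 and 12.36 in si12A, 12.77, 12.67 and 12.84 in si12C and 12.69, 12.69 and 12.80 in siGLO cells. For both genes each group with Zc3h12a siRNA lay apart from each group without it, Il6 above and Osm below. The share of the 325 probes that lay apart in this way was not worked out, so nothing was read from it. Lif was at 12.77, 12.62 and 12.49 in si12A+C, 12.64, 12.90 and 12.76 in si12A, 12.86, 12.71 and 12.74 in si12C and 12.71, 12.73 and 12.87 in siGLO cells, and each siRNA group overlapped with siGLO. limma on that table gave 0.32 for Il6 (adjusted p = 0.000359) and -0.28 for Osm (adjusted p = 0.00283) in si12A+C against siGLO, and 0.22 (adjusted p = 0.00463) and -0.32 (adjusted p = 0.000944) in si12A against siGLO. None reached the fold limit, where 40 of 325 probes (12.3%) were called in each of these comparisons, and these p-values are too small, because the test does not count degrees of freedom for the mouse differences that are gone from the table.

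The transcripts whose levels ran most alike over the 12 libraries differed between the cytokines. Lif was nearest to Osm (Pearson r = 0.98 across 12 libraries), then to Tnfsf9, encoding the costimulatory 4-1BB ligand (0.96), and Il3, the mast cell growth factor (0.94). Osm was nearest to Lif, the chemokine Ccl4 (0.97) and Il4 (0.97). For Il6 the nearest were Peli1, a ubiquitin ligase of Toll-like receptor signalling (0.91), Nfkbiz, a nuclear cofactor of NF-kB that acts on the Il6 gene (0.91), and Isg15 (0.87), while Lif and Osm came 70th and 77th (0.51 and 0.49). These correlations share libraries, depth and the 3 mice, and are a description only.

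Once each mouse's mean was taken off, the likeness of Lif and Osm was largely gone (r = 0.49, 26th of 495 for Lif and 102nd for Osm), and Il6 and Osm ran against each other (r = -0.45). Il6 then stood nearest to Peli1 (0.93), Vwa5a (0.91) and Pdgfa (0.90), the A chain of platelet-derived growth factor. Osm stood nearest to the platelet factor gene Pf4 (0.86), which averaged only 20.0 scaled counts, Top2a, a topoisomerase of dividing cells (0.85), and the proliferation factor Myc (0.83). Lif stood nearest to Polr2a (0.84), the lymphotoxin gene Lta (0.75) and Sdha (0.75), of which Polr2a and Sdha are reference genes of the panel.

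Among the other genes of the pathway, ligands and receptors were scarce. Il27, a ligand subunit that also signals through gp130, averaged 38.2 ± 4.6 scaled counts in si12A+C, 33.5 ± 7.6 in si12A, 40.2 ± 27.0 in si12C and 47.8 ± 21.4 in siGLO cells (SD, n = 3), and Il23a, a subunit of IL-23, was above background in 5 of 12 libraries. Il6ra, the specific receptor of IL-6, was above background in 0 of 12 libraries and was not tested. Il27ra was above background in 3 of 12 libraries. The genes of gp130 and of the receptors of LIF and OSM were not among those listed.

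The transducers were detected, and 0 of 5 were called in any comparison with the block, beside 0% to 6.05% called over all probes, so that nothing was read from this count. Their median log2 fold change was 0.25 in si12A+C and 0.33 in si12A against siGLO, where all 496 probes had medians of 0.01 and 0.01. Stat3, the main transcription factor of the family, was at 182 ± 56 scaled counts in si12A+C, 197 ± 42 in si12A, 150.2 ± 20.1 in si12C and 152 ± 43 in siGLO cells (SD, n = 3). It was 0.38 ± 0.15 higher in si12A than in siGLO cells (edgeR with the block, adjusted p = 0.125). Socs3, the feedback inhibitor that STAT3 induces, was at 47.7, 92.5 and 36.8 in si12A+C cells of mice 1, 2 and 3 and at 48.6, 58.2 and 32.5 in siGLO cells, a log2 fold change of 0.25 ± 0.24 (adjusted p = 0.656). Mouse 2 was again the highest in both groups.

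Of 7 genes that IL-6 type signals induce through STAT3, 5 were tested and 0 called, beside 5.44% to 6.05% called over all probes, so that nothing was read from this count, with medians of -0.09 in si12A+C and -0.15 in si12A against siGLO. Myc was the nearest to a call, at 773, 409 and 709 scaled counts in si12A+C cells of mice 1, 2 and 3 and at 1009, 541 and 908 in siGLO cells. All 3 mice were lower, and the log2 fold change of -0.38 ± 0.09 (adjusted p = 0.0257, edgeR with the block) passed the p but not the fold limit. Il4ra, the receptor for IL-4, was at 0.01 ± 0.12 in si12A+C and 0.35 ± 0.12 in si12A against siGLO (adjusted p = 0.981 and 0.0676).

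Of 13 regulators that act on the Il6 gene, 12 were tested, and 1 rose in si12A+C against siGLO, a share near the 6.05% called over all probes. This was Nfkbiz, which gave 1398, 2269.8 and 964 scaled counts in si12A+C cells of mice 1, 2 and 3, against 537, 678 and 620.2 in siGLO cells, a log2 fold change of 1.23 ± 0.19 (adjusted p = 0.00303, edgeR with the block) without overlap of the groups. The list's median was -0.09, against 0.01 over all 496 probes. Fosb, an AP-1 subunit, was called higher in si12A than in si12C cells (0.61 ± 0.15, adjusted p = 0.0245), and Cebpb, encoding the C/EBP protein known as nuclear factor for IL-6, was at -0.15 ± 0.14 in si12A+C against siGLO (adjusted p = 0.650).

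Some other targets of Regnase-1 and some other mast cell cytokines did pass the test. Over all 496 probes, 6.05% were called in si12A+C, 5.44% in si12A and 0.403% in si12C, each against siGLO, and 4.84% in si12A against si12C. Il1b and Il2 stood in both lists. Of 9 known Regnase-1 targets, Il6 included, 6 were tested and 3 rose in si12A+C against siGLO (Il1b, Il2 and Nfkbiz), 1 in si12C against siGLO (Ier3) and 0 in si12A against siGLO, with a median of 0.58 in si12A+C, where Il6 was at 0.36. Of 14 tested cytokines other than Il6, Lif and Osm, Il1a, Il1b, Il2 and Tnf rose in si12A+C against siGLO (edgeR with the block, log2 fold changes of 0.90 ± 0.20, 0.80 ± 0.18, 1.60 ± 0.26 and 1.03 ± 0.15), Tnf rose in si12A and in si12C, and Csf2 was lower in si12A than in si12C cells (-0.80 ± 0.19).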

How the data were processed

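BMMC RNA (50 ng per sample) was counted by the authors on an nCounter SPRINT instrument with a myeloid innate immunity panel, and the deposited raw counts hold 734 endogenous, 20 reference, 8 negative and 6 positive control probes in 12 libraries, unscaled and without pooling. The deposited log2 table, which the authors made with the Omics Playground platform at settings not given in the sources used here, lists 325 probes, and the SD of mouse means averages 0.0110 in it, against 0.420 in the counts, so mouse differences were nearly gone from it. It served as an alternative only.

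Probes were tested where at least 3 libraries exceeded their detection limit (negative control mean, plus 2 SD), 496 in all (476 endogenous and 20 reference). edgeR 4.0.16 (R 4.3.3) fitted TMM-scaled counts of the 12 libraries by its quasi-likelihood test, with Benjamini-Hochberg adjustment over the 496 probes, first with the siRNA groups alone and then with the mouse as a block. limma 3.58.1 and DESeq2 1.42.0, other scales and filters, background subtraction and leaving out each mouse or library were alternatives. The test was tested on simulated data first. The raw count headers carry a second number, shared by the 4 libraries of a replicate number, and do not say what it stands for. It was taken to be an animal number, and the design text speaks of 3 mice. Deviations from group means correlated at 0.0897 to 0.852 in 18 pairs of libraries of 1 mouse and at -0.811 to 0.634 in 48 pairs of different mice, and 12 of 12 libraries correlated best with their own mouse, so the numbers were taken to pair the libraries. No pair of libraries was a duplicate (smallest chi-square per degree of freedom 15.0).

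The 3 genes, the gene lists and the marker lists were chosen with earlier results of these data known. Besides the 3 genes, the rule named the 3 probes most correlated with each (over the 12 libraries, and with mouse means taken off), Il6ra, Stat3, Socs3 and listed pathway genes called with the block. Il27, Il27ra, Il23a, Il4ra, Cebpb, Vegfa, Il5, Il10, Adgre1, Cd68, Mrc1, Cd14, Cd163, Cx3cr1, the mast cell and neutrophil markers named singly and the called genes of the other lists were picked after their values were seen. At the counts of Il6, Lif and Osm, counting error is small beside the spread between mice, which 3 animals measure only roughly.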

Additional observations from a re-analysis of the deposited data

How the results depend on the processing

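None of the 3 cytokines was called in any of the 7 comparisons, in either the fit without the mouse or the fit with it, also with no fold minimum, and 5 differences were called under another scale with the mouse as a block. Those were Il6 with the well-detected reference genes as the scale (0.63 in si12A+C against siGLO, 0.51 in si12A against siGLO and 0.59 in si12A+C against si12C) and Osm with the positive controls (-0.68 in si12A against siGLO and -0.63 in si12A against si12C). Both scales shifted the median of all probes, as given above, and the cause of the unequal scales was not tested. The mouse difference of Il6 had an adjusted p of 0.543 with total counts, 0.184 with the positive controls and 0.115 with the well-detected reference genes, and 0.000676 to 0.549 when 1 mouse or library was left out, whereas those of Lif and Osm were called under all alternatives. The mouse as a replicate block moved the count of probes called to 30 in si12A+C against siGLO, 27 in si12A against siGLO, 2 in si12C against siGLO, 15 in si12A+C against si12C and 24 in si12A against si12C, all 0 without it, and changed no call of the 3 cytokines.

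Directions that turned belonged to uncalled differences, against the TMM fit without the block. With the positive controls as the scale, Il6 was at -0.15 without and -0.15 with the block in si12A against siGLO, -0.0017 without and -0.015 with the block in si12C against siGLO, -0.15 without and -0.13 with the block in si12A against si12C, and Lif was at -0.46 without and -0.38 with the block in si12A against siGLO, -0.016 without and -0.14 with the block in si12C against siGLO, 0.24 without and 0.12 with the block in si12A+C against si12A, -0.45 without and -0.25 with the block in si12A against si12C, 0.25 without and 0.26 with the block in the test of additivity, and Osm was at -0.052 with the block in si12C against siGLO, 0.51 without and 0.40 with the block in the test of additivity. With no filter, Il6 was at -0.011 without and -0.00027 with the block in the test of additivity, and Lif was at -0.045 with the block in si12C against siGLO, and Osm was at -0.023 without and -0.036 with the block in si12A+C against si12A. With background subtracted, Il6 was at -0.021 without the block in the test of additivity, and Lif was at -0.067 with the block in si12C against siGLO, and Osm was at -0.037 without and -0.060 with the block in si12A+C against si12A. With the well-detected reference genes as the scale, Lif was at 0.14 without and 0.070 with the block in si12A+C against siGLO, -0.061 with the block in si12C against siGLO, 0.058 without and 0.13 with the block in si12A+C against si12C, and Osm was at 0.13 without the block in si12A+C against siGLO, 0.12 without the block in si12A against siGLO, 0.014 without the block in si12A+C against si12C, 0.0078 without the block in si12A against si12C, 0.0016 with the block in the test of additivity. With total counts as the scale, Lif was at -0.034 without and -0.020 with the block in si12A against siGLO, -0.034 without and -0.092 with the block in si12C against siGLO, -0.00028 without the block in si12A against si12C, and Osm was at -0.011 without and -0.011 with the block in si12C against siGLO, 0.055 without and 0.012 with the block in the test of additivity. With all reference genes as the scale, Lif was at -0.14 without and -0.12 with the block in si12A against siGLO, -0.071 with the block in si12C against siGLO, 0.12 without and 0.073 with the block in si12A+C against si12A, 0.025 with the block in si12A+C against si12C, -0.24 without and -0.049 with the block in si12A against si12C, 0.028 without and 0.14 with the block in the test of additivity, and Osm was at 0.28 without and 0.27 with the block in the test of additivity. With only probes above background in every library, Lif was at -0.00051 with the block in si12A against siGLO, -0.068 with the block in si12C against siGLO, and Osm was at 0.018 without and 0.0080 with the block in the test of additivity. With the deposited log2 table, Lif was at -0.0018 without the block in si12A against siGLO, -0.0026 without the block in si12A against si12C, and Osm was at 0.0035 without the block in the test of additivity. With TMM, Lif was at -0.056 with the block in si12C against siGLO, and Osm was at -0.0044 with the block in si12A+C against si12A. With DESeq2, Lif was at -0.049 with the block in si12C against siGLO, and Osm was at -0.0036 without and -0.028 with the block in si12A+C against si12A. With limma, Lif was at -0.046 without and -0.046 with the block in si12C against siGLO, and Osm was at -0.010 without and -0.010 with the block in si12A+C against si12A. With DESeq2's size factors in edgeR, Lif was at -0.049 with the block in si12C against siGLO, and Osm was at -0.0036 without and -0.028 with the block in si12A+C against si12A. When 1 mouse or library was left out, with or without the replicate block, no difference was called. Il6 lay at -0.10 to 0.17 in si12C against siGLO, -0.085 to 0.31 in si12A+C against si12A, -0.15 to 0.24 in the test of additivity. Lif lay at -0.84 to 0.53 in si12A+C against siGLO, -0.69 to 0.78 in si12A against siGLO, -0.82 to 0.75 in si12C against siGLO, -0.91 to 0.52 in si12A+C against si12A, -0.89 to 0.64 in si12A+C against si12C, -0.74 to 0.88 in si12A against si12C, -0.997 to 0.57 in the test of additivity. Osm lay at -1.19 to 0.69 in si12A+C against siGLO, -1.18 to 0.67 in si12A against siGLO, -0.88 to 0.94 in si12C against siGLO, -0.98 to 0.99 in si12A+C against si12A, -1.25 to 0.69 in si12A+C against si12C, -1.25 to 0.67 in si12A against si12C, -1.04 to 0.93 in the test of additivity. For Lif and Osm the ends of these ranges come from fits without the block that leave out a library of mouse 2, where both are highest. Il6 was higher in all 30 such fits in si12A+C against siGLO (0.19 to 0.52) and in si12A against siGLO (0.06 to 0.40).

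Fits with the block and another scale factor or only probes above background everywhere, ratios within libraries, pairs of mice and calls without a fold minimum were added after seeing the data. The 3 mice bound the precision, and all scales assume that most probes or controls were alike.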
